A study of Rattus norvegicus with 6 samples.

Results

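Molecular chaperones and their partners were followed in the rat endosalpinx, which is the mucosa of the oviduct. Members were taken by gene symbol alone: heat shock proteins (symbols beginning Hspa, Hspb, Hspd, Hspe, Hsph or Hsp90), DnaJ co-chaperones (Dnaja, Dnajb, Dnajc), numbered Bag and Cct genes, and Tcp1, Hsf1, Hsf2, Stip1 and St13. Only probe sets annotated to exactly 1 gene were used, and the one with the highest mean signal stood for its gene. This gave 83 members among the 14506 genes measured. A single probe set annotated jointly to Hspa1a, Hspa1b and Hspa1l, the strictly inducible HSP70 genes and a testis relative, has several symbols and is therefore not included.

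Sprague-Dawley females formed 2 groups of 3 animals, with 1 array per animal. Mated rats were put with a fertile male at 2200 h of pro-estrus, were checked for sperm or a plug after 30 min, stayed with the male and were killed 3 h after mating. Unmated rats were kept isolated from pro-estrus and killed at 0130 h of estrus, so the presence of a male cannot be told apart from mating itself. Semen was abundant in the uterus of the mated rats, whereas uterine edema was recorded for the unmated rats. The comparison asks how the lining differs shortly after insemination. All signals below are on the log2 scale as deposited, and a difference is the mated mean minus the unmated mean.

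Chaperones hold, fold or refold other proteins. HSP70 proteins bind exposed stretches of a client, DnaJ proteins deliver clients and trigger ATP hydrolysis, and BAG-domain proteins and HSP110 release the nucleotide again. HSP90 acts later on maturing clients, among them steroid hormone receptors, which makes this machinery of interest in an estrogen- and progesterone-responsive tissue. Chaperonins are closed chambers for folding, and small heat shock proteins keep unfolded clients from aggregating. In a stressed cell the factor HSF1 binds heat shock elements in the promoters of the inducible members, while the chaperones of the endoplasmic reticulum (ER) answer to a separate pathway through other elements.

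No member passed the threshold of an adjusted p under 0.05, and neither did any of the 14506 genes (0%; adjusted p = 0.984 at the lowest by limma). Before adjustment, 663 genes had a p under 0.05. The 5 largest upward differences among the members were all of genes on a heat-inducible list. St13, which is not on it, had a difference of 0.23 and exceeded others that are, such as Dnajb4 (0.19) and Dnaja1 (0.18). The list was drawn up with results of these data known, so its direction is a description. It also holds Hspa8 and Hsp90ab1, which are abundant without stress and rise further with heat. Of a list of 16 such genes 14 were measured, and the mean of each was higher in mated rats, with a median difference of 0.26 and a range from 0.05 for Hspa8 to 0.62 for Hspb1. The other 69 members had a median of 0.01, as did all genes, and 39 of the 69 were higher. Over all members the median was 0.04 and 53 of 83 (63.9%) were higher, beside 53.3% of all genes. After a second quantile normalization 13 of the 14 were higher, Hspa8 lying at -0.00. The groups overlapped for each of the 14. In bulk tissue a change in the share of a cell type and a change in RNA per cell cannot be told apart.

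At an unadjusted p under 0.05, 4 of 83 members were higher (4.82%), beside 3.02% of all genes, and 1 was lower (1.2%), beside 1.55%. Together these 5 are 6.02% of the members against 4.57% of all genes, so the count lies near the background. The 5 were Hspd1, Stip1, St13, Hspb1 and Dnajc18. The count rested on single arrays. Without mated replicate 3 it was 0, beside 3.67% of all genes. Without unmated replicate 1 it was 2 (2.41%, beside 4.42% of all genes), Dnajc15 and Dnajc30, neither among the 5. Without unmated replicate 3 it was 2 (2.41%, beside 5.81%), Dnajc18 and Hspb1. Without unmated replicate 2 it was 9 (10.8%, beside 2.98% of all genes), without mated replicate 2 it was 9 (beside 3.87%), and without mated replicate 1 it was 11 (13.3%, beside 9.67%). All mated values lay on 1 side of all unmated values for 4 members (4.82%), beside 8.47% of all genes; 2 were higher (2.41%, beside 5.24%) and 2 lower (2.41%, beside 3.23%). These were St13 and Dnajc21 above, and Dnajb6 and Dnajc25 below. Only St13 and Dnajc21 stayed without overlap after a second quantile normalization or median centring, where Dnajc7, Dnajc9 and Hspbap1 joined them. The count was then 5 (6.02%, beside 9.44% of all genes) after the former. It was 6 (7.23%, beside 8.38%) after the latter, with Stip1. Leaving out 1 array moved this count as well, from 5 without mated replicate 3 (6.02%, beside 15.3% of all genes) to 26 without unmated replicate 2 (31.3%, beside 14.6%).

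**Figure D1:**
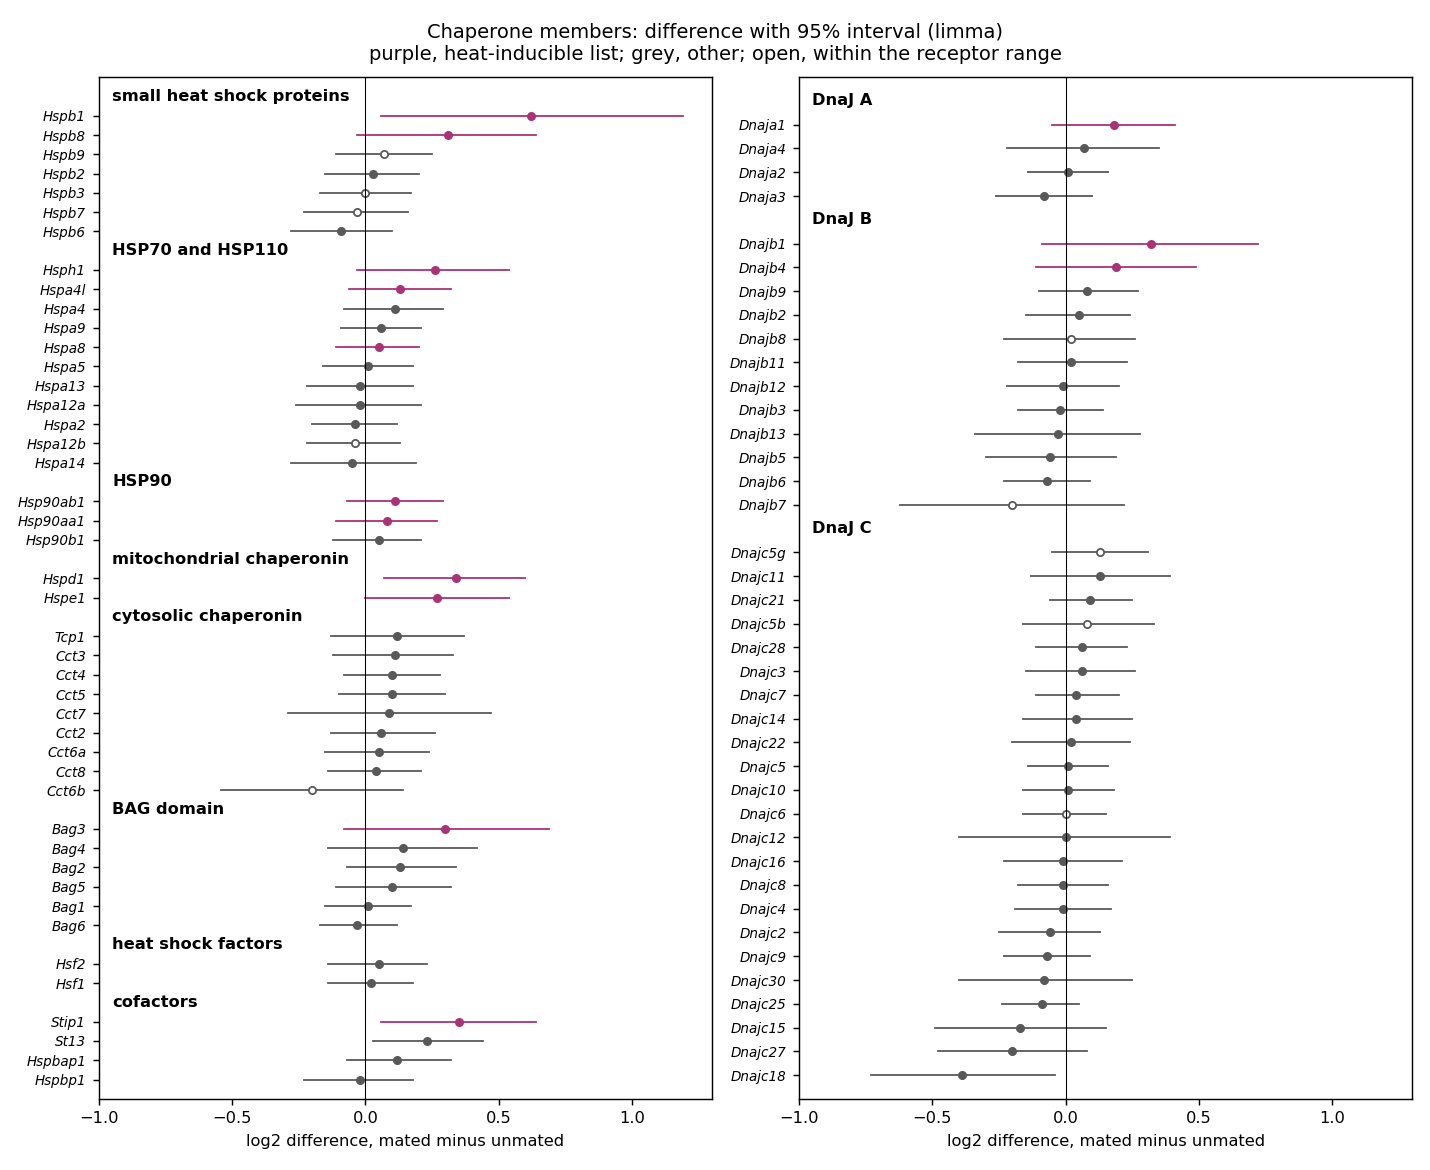
Difference in log2 signal between mated and unmated rats for all 83 members, by class, with 95% confidence intervals from limma (3 arrays per group). The point estimates of heat-inducible members, in purple, all lie to the right of 0, from 0.05 to 0.62. Among these only the intervals of Hspb1, Hspd1 and Stip1 exclude 0. Most DnaJ C members are centred on 0. Open circles are members within the range of receptor genes that serve as a guide to background.

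The small heat shock proteins separated into inducible members and members near background or muscle-type members. Hspb1, which encodes HSP27, had signals of 10.90, 11.44 and 11.84 in unmated and 11.78, 11.86 and 12.41 in mated rats. Unmated replicate 3 lay between the 2 lower mated values, so the groups overlapped, and the unmated rats alone spanned almost 1 log2 unit. The means were 11.39 ± 0.47 and 12.02 ± 0.34 (SD, n = 3 per group). The difference was 0.62, or 1.54-fold (95% confidence interval 0.06 to 1.19; unadjusted p = 0.0352 by limma).

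Hspb8, the partner of BAG3 in clearing misfolded proteins, had signals of 9.42, 9.76 and 9.49 in unmated and 9.78, 9.65 and 10.16 in mated rats. The highest mated array stood apart, mated replicate 2 lay inside the unmated range, and the difference was 0.31 (-0.03 to 0.64). Hspb6, the HSP20 of smooth muscle, lay at 9.07, 9.11 and 8.94 in unmated and 8.98, 8.83 and 9.03 in mated rats, with the groups interleaved. Its difference was -0.09 (-0.28 to 0.10). The remaining members, Hspb2, Hspb3, Hspb7 and Hspb9, differed by between -0.03 and 0.07, and all of these except Hspb2 lay within the receptor range. That range ends at a log2 signal of 7.13, the 95th percentile of 1256 odorant and pheromone receptor genes, and 73 of the 83 members lay above it.

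Among HSP70 and HSP110 genes the inducible HSP110, Hsph1, differed most. Its signals were 12.26, 12.70 and 12.35 in unmated and 12.62, 12.62 and 12.84 in mated rats. Unmated replicate 2 exceeded 2 of the 3 mated arrays. The difference was 0.26 (95% confidence interval -0.03 to 0.54; unadjusted p = 0.0731 by limma).

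Its relatives Hspa4l and Hspa4 differed by 0.13 and 0.11. Hspa8, the constitutive cytosolic HSP70, was at 14.21, 14.28 and 14.20 in unmated and 14.24, 14.25 and 14.34 in mated rats, a difference of 0.05 (-0.11 to 0.20). The values of the groups were mixed except for the highest, on mated replicate 3. Hspa8 had 8 probe sets, with differences from 0.05 to 0.09, and copies of near-identical sequence could share this signal, so which locus was measured is uncertain. The mitochondrial Hspa9 differed by 0.06, and the other 6 genes of the class by between -0.05 and 0.01.

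**Figure D2:**
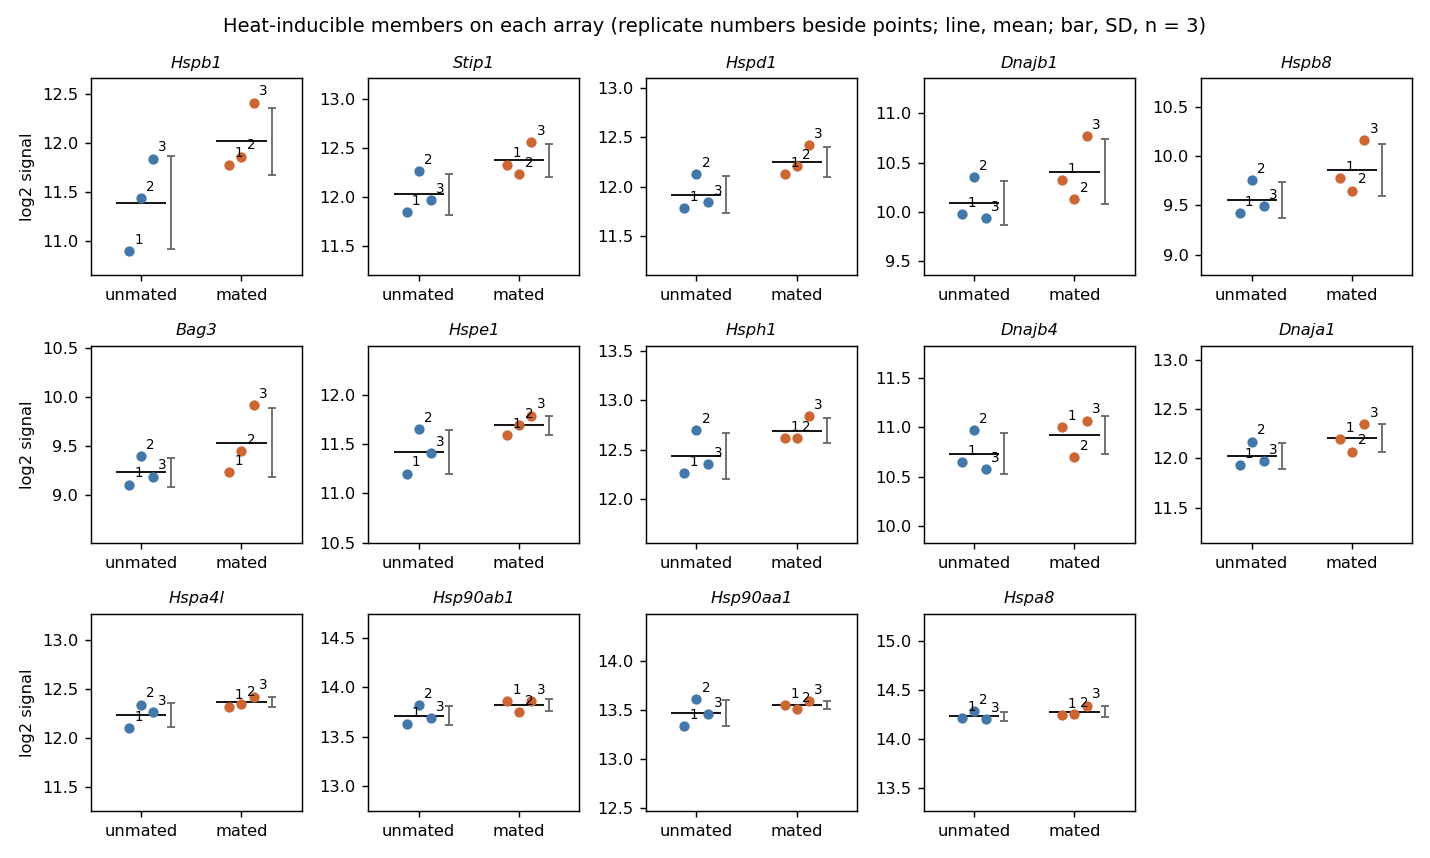
Log2 signal of the 14 heat-inducible members on each array, with the replicate number beside each point, the group mean as a line and the SD as a bar (n = 3 per group; each panel spans 2 log2 units). Mated replicate 3 is the highest point in 12 of the 14 panels, and unmated replicate 2 is above unmated replicate 1 in all 14.

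The 39 DnaJ genes supply the J-domain partners of HSP70, and most had differences near 0. Of the A group, Dnaja1 is the inducible cytosolic member, at 11.93, 12.17 and 11.97 in unmated and 12.20, 12.07 and 12.35 in mated rats. Its lowest mated value fell inside the unmated range, and the difference was 0.18 (95% confidence interval -0.05 to 0.41). Dnaja2, Dnaja3 and Dnaja4 differed by between -0.08 and 0.07.

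In the B group 6 members were higher and 6 lower, with a median of 0.00. Dnajb1, the inducible HSP40, was at 9.98, 10.35 and 9.94 in unmated and 10.32, 10.13 and 10.77 in mated rats. Mated replicates 1 and 2 lay within the unmated range, and the difference of 0.32 had an interval of -0.09 to 0.72. Dnajb4, also inducible, differed by 0.19 (-0.11 to 0.49). Dnajb6, a suppressor of protein aggregation, lay at 9.92, 9.92 and 10.05 in unmated and 9.91, 9.89 and 9.88 in mated rats. These groups did not overlap, but they were only 0.01 apart at their nearest values. Dnajb11, an ER co-chaperone, was at 11.22, 11.38 and 11.49 in unmated and 11.29, 11.45 and 11.42 in mated rats, and the groups overlapped fully.

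In the C group, with 23 members, 11 were higher and 12 lower and the median was -0.00. Dnajc18, a DnaJ protein of the ER membrane, was at 8.97, 9.30 and 8.78 in unmated and 8.87, 8.51 and 8.51 in mated rats. Mated replicate 1 fell within the unmated range and the other mated arrays below it. The difference was -0.39 (95% confidence interval -0.73 to -0.04; unadjusted p = 0.0329 by limma), the largest downward difference of any member.

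Dnajc27, a small GTPase with a J domain, was at 7.59, 7.69 and 7.75 in unmated and 7.76, 7.35 and 7.33 in mated rats. As for Dnajc18, mated replicates 2 and 3 were low and mated replicate 1 was not; the difference was -0.20 (-0.48 to 0.08). Dnajc15, a J protein of the mitochondrial inner membrane, was at 9.73, 10.32 and 10.11 in unmated and 9.88, 9.82 and 9.94 in mated rats. Its lowest value was on unmated replicate 1, and the difference was -0.17 (-0.49 to 0.15). Without that array the unadjusted p was under 0.05.

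Dnajc25 was at 9.64, 9.68 and 9.65 in unmated and 9.55, 9.61 and 9.53 in mated rats, without overlap but with a difference of only -0.09 (-0.24 to 0.05). Dnajc21, a factor of ribosome assembly, was at 8.43, 8.48 and 8.38 in unmated and 8.53, 8.55 and 8.49 in mated rats, also without overlap, at 0.09 (-0.06 to 0.25). Dnajc3, the ER inhibitor of the kinase PERK also known as P58IPK, was at 11.38, 11.51 and 11.38 in unmated and 11.32, 11.54 and 11.58 in mated rats. Both the lowest and the highest value belonged to mated rats. The remaining 17 members of the group differed by between -0.08 and 0.13.

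Of the 6 BAG genes 5 were higher, with a median of 0.12. Bag3, the stress-inducible member that links HSP70 to autophagy, was at 9.11, 9.40 and 9.19 in unmated and 9.24, 9.45 and 9.92 in mated rats. One mated array stood far above the rest while mated replicate 1 lay inside the unmated range; the difference was 0.30 (95% confidence interval -0.08 to 0.69). Bag1, which regulates HSP70 and binds the anti-apoptotic protein BCL2, was at 10.81, 10.77 and 10.70 in unmated and 10.81, 10.69 and 10.81 in mated rats, a difference of 0.01. Bag2, Bag4 and Bag5 differed by 0.13, 0.14 and 0.10, and Bag6 by -0.03.

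The HSP90 genes differed by 0.05 to 0.11. Hsp90ab1, the constitutive cytosolic form, was at 13.63, 13.82 and 13.69 in unmated and 13.86, 13.75 and 13.86 in mated rats. Mated replicate 2 lay inside the unmated range, and the difference was 0.11 (95% confidence interval -0.07 to 0.29). Hsp90aa1, the inducible form, differed by 0.08 (-0.11 to 0.27) and Hsp90b1, the ER form, by 0.05 (-0.12 to 0.21).

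Among the cofactors of HSP70 and HSP90 both Stip1 and St13 had an unadjusted p under 0.05. Stip1 encodes HOP, which passes clients from HSP70 to HSP90. Its signals were 11.85, 12.26 and 11.97 in unmated and 12.33, 12.23 and 12.56 in mated rats, so the groups met only at unmated replicate 2 and mated replicate 2. The difference was 0.35, or 1.27-fold (95% confidence interval 0.06 to 0.64; unadjusted p = 0.0254 by limma).

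St13 encodes HIP, which steadies HSP70 in its client-bound state. Its signals were 11.53, 11.68 and 11.50 in unmated and 11.74, 11.73 and 11.94 in mated rats. All mated arrays were above all unmated arrays, by 0.05 at the nearest pair. The difference was 0.23 (95% confidence interval 0.03 to 0.44; unadjusted p = 0.0286 by limma), and its 3 probe sets gave 0.23, 0.25 and 0.23. Hspbap1 and Hspbp1, a binding partner of HSP27 and a nucleotide exchange factor of HSP70, differed by 0.12 and -0.02.

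The mitochondrial chaperonin and its lid had the highest median of any class, 0.30. Hspd1, which encodes HSP60, was at 11.78, 12.13 and 11.84 in unmated and 12.13, 12.21 and 12.42 in mated rats. Unmated replicate 2 was level with mated replicate 1, and the rest were separate. The difference was 0.34, or 1.26-fold (95% confidence interval 0.07 to 0.60; unadjusted p = 0.0196 by limma), and a second probe set of the gene gave 0.26.

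Hspe1, which encodes HSP10, the lid of the HSP60 chamber, was at 11.20, 11.65 and 11.41 in unmated and 11.59, 11.69 and 11.79 in mated rats. Again unmated replicate 2 reached into the mated range. The difference was 0.27 (-0.00 to 0.54; unadjusted p = 0.0513 by limma). For both genes unmated replicate 1 was the lowest array and mated replicate 3 the highest.

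The cytosolic chaperonin, which folds actin and tubulin, had small differences. Of its 9 genes 8 were higher, but by 0.12 at most (Tcp1), and the median was 0.09. Cct2 was at 11.97, 12.20 and 11.99 in unmated and 12.16, 12.04 and 12.15 in mated rats, and its highest value was on an unmated array. Cct6b, a subunit found mainly in testis, was at 6.85, 7.00 and 6.80 in unmated and 6.78, 6.93 and 6.33 in mated rats. It lay within the receptor range, with mated replicate 3 well below the rest, and differed by -0.20 (95% confidence interval -0.54 to 0.14).

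The intervals of the heat shock factors Hsf1 and Hsf2 included 0. Hsf2 was at 9.77, 9.77 and 9.78 in unmated and 9.97, 9.74 and 9.75 in mated rats, so that only mated replicate 1 stood apart; the difference was 0.05 (95% confidence interval -0.14 to 0.23). Hsf1, which is mainly controlled through its protein, differed by 0.02 (-0.14 to 0.18).

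Members were also read by compartment. Of 13 listed ER chaperones 11 were measured, of which 6 were higher and 5 lower, and their median was 0.01. Hspa5, which encodes BiP, the HSP70 of the ER, was at 13.63, 13.76 and 13.63 in unmated and 13.60, 13.74 and 13.71 in mated rats, a difference of 0.01 (95% confidence interval -0.16 to 0.18). This value turned to -0.04 after a second quantile normalization. Of 8 mitochondrial members 5 were higher, at a median of 0.06, and Hspd1 and Hspe1 exceeded the rest. Of 9 members of testis or cilium type 4 were higher, at a median of -0.02, and 6 lay within the receptor range. Dnajb13, a component of the radial spokes of motile cilia, was at 9.27, 9.36 and 9.46 in unmated and 9.64, 9.12 and 9.24 in mated rats, with both extremes among the mated.

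The promoters of the members were searched for heat shock elements, after the larger differences of the heat-inducible members had been seen. The heat-inducible list was set by gene symbol, not by promoter content. Inducible genes often carry such elements, so a high share on that list was foreseeable and does not bear on mating. Windows from 250 bases before to 50 after the annotated start, from RefSeq for the assembly GRCr8, were found for 68 of the 83 members. The 2-unit element was written as GAANNTTC or TTCNNGAA, where N is any base; each reads the same on both strands. It occurred in 11 of 12 heat-inducible members with a window (91.7%), in 10 of the other 56 members (17.9%) and in 15.4% of all 27457 windows. The exception was Hsp90ab1. The 3-unit element adds another unit at the same spacing of 2 bases, on either strand, and each 3-unit match also counts as 2-unit matches. It occurred in 5 of the 12 (41.7%), in 1 of the 56 (1.79%; Cct4) and in 0.736% of all windows. A match is a description of the letters, not a bound site. Members with no window were Bag4, Dnaja2, Dnajb4, Dnajc2, Dnajc5b, Dnajc8, Dnajc11, Dnajc12, Dnajc15, Dnajc22, Hsf1, Hsp90aa1, Hspa12a, Hspb2 and St13.

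**Figure D3:**
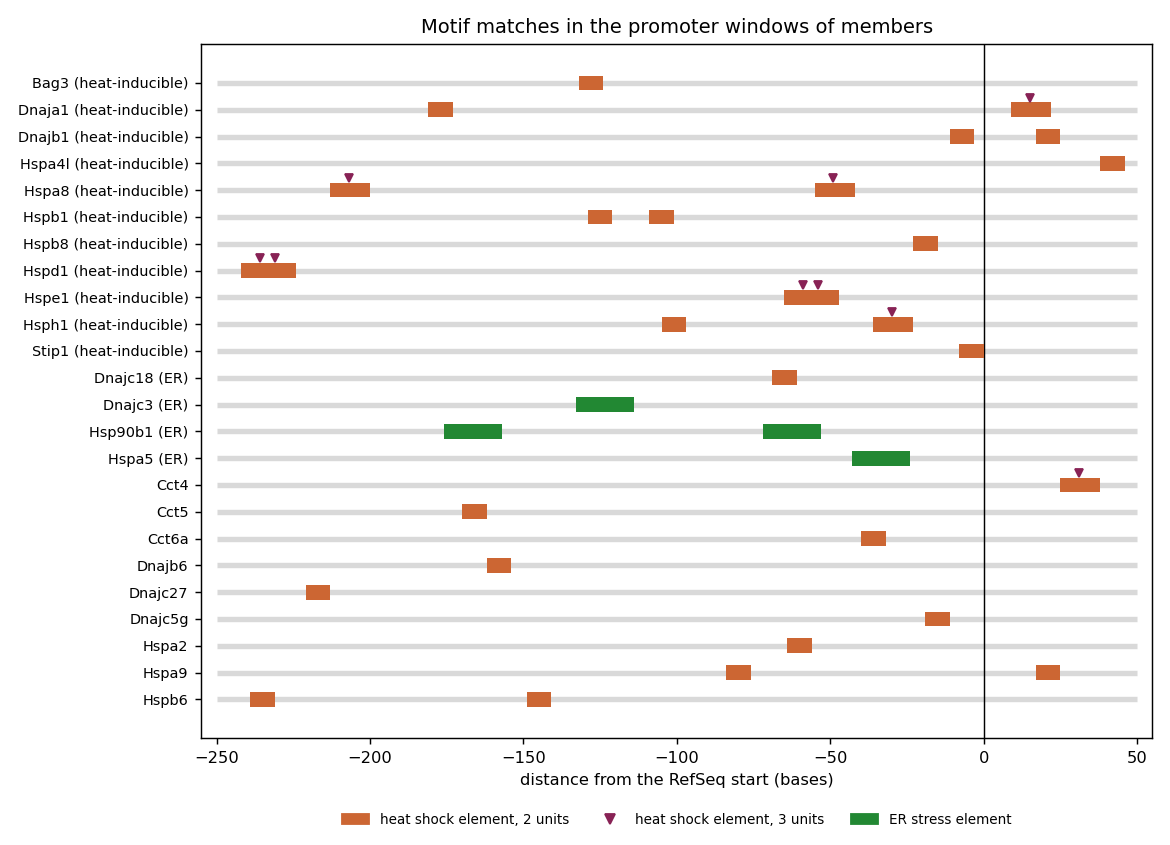
Positions of motif matches in the promoter windows of the 24 members with any match, as distance in bases from the annotated start; orange bars are 2-unit heat shock elements, triangles mark 3-unit elements and green bars are ER stress elements. The 11 heat-inducible members with a match are at the top, and the 3 members with an ER stress element have no heat shock element in the window.

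Stretches before the start are shown for the inducible members with the largest differences, for Dnajc18 as the member that was lower at an unadjusted p under 0.05, and for Hspa5 as an ER chaperone. Each is printed 5′ to 3′ in the direction of its gene, with the match in capitals. Hspe1 and Hspd1 lie head to head on chromosome 9 with 290 bases between their starts, and 1 run of overlapping 3-unit elements lies before both, beginning at -65 from the Hspe1 start and at -242 from the Hspd1 start. The stretch is given in the Hspe1 direction (GRCr8, chr9:64084242-64084299, plus strand). The others are Hspb1 (chr12:26432383-26432450, minus strand), Stip1 (chr1:213657655-213657682, minus), Dnajb1 (chr19:41431142-41431172, minus), Hspb8 (chr12:45837265-45837307, plus), Bag3 (chr1:192533308-192533355, plus), Hsph1 (chr12:10427243-10427364, plus), Dnajc18 (chr18:27577577-27577624, minus) and Hspa5 (chr3:38452953-38453011, plus).
Hspe1 and Hspd1: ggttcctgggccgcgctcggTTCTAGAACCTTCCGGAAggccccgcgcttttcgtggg
Hspb1: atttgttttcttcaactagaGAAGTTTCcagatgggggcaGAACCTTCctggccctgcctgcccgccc
Stip1: tcccggcagcttctagtaggTTCCAGAA
Dnajb1: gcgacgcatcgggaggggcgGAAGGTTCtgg
Hspb8: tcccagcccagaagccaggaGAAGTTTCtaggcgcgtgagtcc
Bag3: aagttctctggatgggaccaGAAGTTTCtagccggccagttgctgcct
Hsph1: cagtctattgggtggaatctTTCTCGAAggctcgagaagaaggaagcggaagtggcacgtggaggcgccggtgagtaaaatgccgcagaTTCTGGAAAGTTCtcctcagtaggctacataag
Dnajc18: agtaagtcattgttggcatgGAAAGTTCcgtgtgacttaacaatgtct
Hspa5: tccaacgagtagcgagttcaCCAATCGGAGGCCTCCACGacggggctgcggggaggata

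In the Hspa5 stretch the capitals mark an ER stress element, searched as CCAAT followed after any 9 bases by CCACG, on both strands. It was found in 3 of 11 ER members with a window (27.3%), namely Hspa5, Hsp90b1 and Dnajc3, in none of the 12 heat-inducible members and in 0.0765% of all windows. The differences of these 3 genes were 0.01, 0.05 and 0.06.

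The signals were then set against the motif. The 21 members with a 2-unit element had a median difference of 0.13 and 16 of them were higher; the 47 without one had a median of 0.01 and 27 were higher. Among the 10 with an element that were not on the heat-inducible list, the median was 0.00 and 5 were higher. Among them was Dnajc18. The 6 members with a 3-unit element were Hspa8, Hspd1, Hspe1, Hsph1, Dnaja1 and Cct4. They had a median of 0.22 and were all higher in the deposited values, Hspa8 reaching -0.00 after a second quantile normalization. All but Cct4, at 0.10, are on the heat-inducible list, so these values largely restate the direction of that list. Hspd1 and Hspe1 share 1 run of elements. Over all measured genes the median was 0.01 for 1529 genes with the 2-unit element and 0.01 for 10422 without it. For the 63 genes with the 3-unit element it was 0.02.

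On average, heat-inducible members followed an order of the animals, within as well as between the groups. Their mean deviation from the unmated mean was -0.15, 0.17 and -0.02 on the 3 unmated arrays and 0.18, 0.14 and 0.43 on the 3 mated arrays. Unmated replicate 2 thus lay between mated replicates 2 and 1, and the 0.32 between the lowest and highest unmated rat exceeded the median group difference. All genes deviated by between -0.00 and 0.02. The arrays named here were singled out after their values were seen.

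Parts of this order were seen in many single members, but not all of it in each. For Hspb1, unmated replicate 3 (11.84) lay above unmated replicate 2 (11.44) and mated replicate 1 (11.78). Mated replicate 3 held the highest of the 6 values for 12 of 14 heat-inducible members (85.7%), beside 15.3% of all genes, and for 16 of the 69 other members (23.2%). Unmated replicate 1 held the lowest for 11 of the 14 (78.6%), beside 15.5% of all genes, and for 22 of the 69 other members (31.9%). Unmated replicate 2 was above unmated replicate 1 for all 14 heat-inducible members and for all 9 cytosolic chaperonin genes, beside 49.1% of all genes. That order was not limited to them: it held for 49 of the 69 other members (71%), for 35 of 46 other chaperone pathway genes (76.1%) and for 12 of 13 ciliated cell markers (92.3%). Without mated replicate 3 the heat-inducible median was 0.13, without unmated replicate 1 it was 0.16 and without unmated replicate 2 it was 0.39. In each of these cases all 14 remained higher in mated rats. This is a description, since the list was drawn up with results known and the 14 were read on the same animals.

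**Figure D4:**
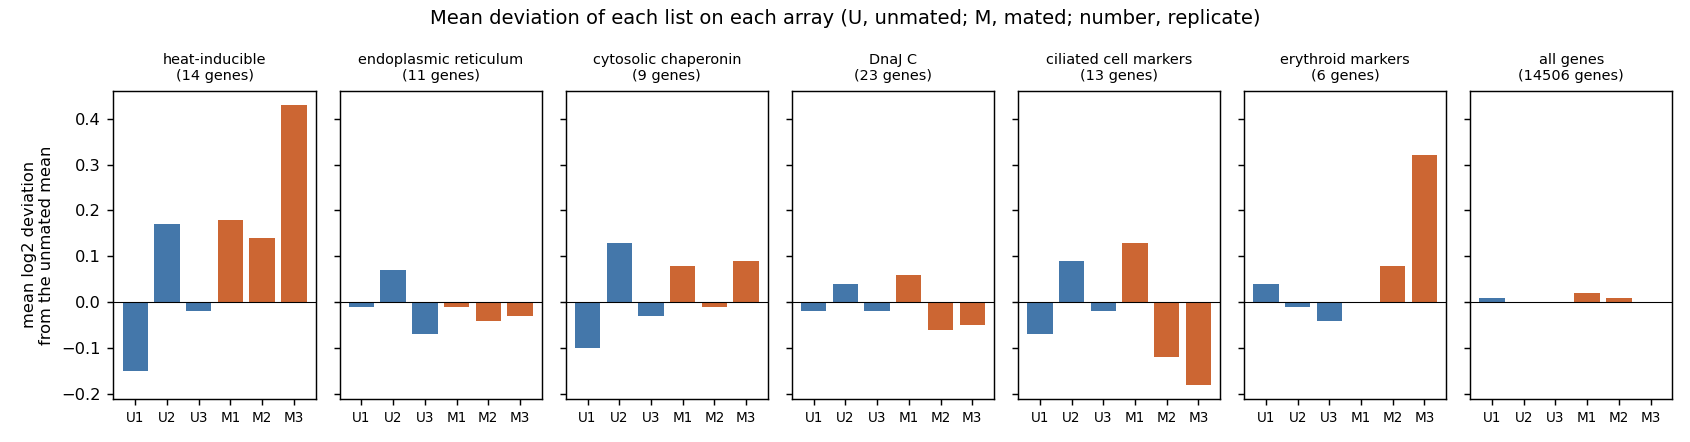
Mean deviation from the unmated mean, in log2 units, on each of the 6 arrays for 4 sets of members, 2 lists of cell markers and all genes. The heat-inducible bars run from -0.15 to 0.43 with unmated replicate 2 as high as 2 of the mated arrays, whereas the ER members stay between -0.07 and 0.07.

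Cell markers moved with single arrays too. The mean of 6 erythroid markers was highest on mated replicate 3. It was 7.27, 7.22 and 7.19 on the unmated and 7.23, 7.31 and 7.55 on the mated arrays. For 4 of the 6 genes the highest value was on that array, and 3 of the 6 lay above the receptor range. Hbb, a beta globin, was at 9.60, 9.47 and 9.43 in unmated and 9.48, 9.86 and 10.15 in mated rats. All 6 erythroid genes were higher in mated rats and none had an unadjusted p under 0.05. The globins Hbb and Hbb-b1 differed by 0.33 and 0.29, the other genes by only 0.02 to 0.07. The mean of the ciliated cell markers was lowest on mated replicate 3. Their mean deviations were -0.07, 0.09 and -0.02 on unmated and 0.13, -0.12 and -0.18 on mated arrays, and 12 of 13 were lower. Of the markers of secretory epithelium 9 of 11 were higher, and the mean level was 11.45, 11.42 and 11.53 on unmated and 11.47, 11.50 and 11.61 on mated arrays. Of 12 fibroblast markers 10 were lower, among them Dpt at -0.46 (unadjusted p = 0.00202 by limma). Of 7 endothelial markers 4 had an unadjusted p under 0.05, beside 4.57% of all genes. Tie1 and Esam were higher at 0.33 and 0.25, and Tek and Emcn lower at -0.29 and -0.22. Both lower genes lay within the receptor range, and Pecam1, Cdh5 and Kdr differed by 0.01, 0.05 and -0.12. Of 9 neutrophil markers 7 were higher, 3 of them at an unadjusted p under 0.05, beside 3.02% of all genes in that direction. Only 1 of the 9 lay above the receptor range. For these counts of direction, 53.3% of all genes were higher in mated rats. No marker passed the adjusted threshold. The part of blood content or cell makeup in the chaperone values was not tested.

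Most epithelial markers lay above the receptor range, namely all 11 of secretory epithelium and 12 of 13 of ciliated cells. Epcam, Krt8 and the ciliary gene Hydin were above a log2 signal of 12 on every array. Means ran from 9.24 to 12.97 for secretory markers and from 6.22 (Spag6) to 12.17 for ciliated cell markers. Of 18 spermatid and sperm markers 9 were higher and 9 lower, with a median of 0.01 and 7 above the receptor range. The brightest, Spata18, Ldhc and Odf2, had means of 12.93, 10.78 and 10.04 in unmated rats. In mated rats their means were 12.76, 10.55 and 10.02, so these markers were no lower without mating.

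Other genes of the chaperone pathway that are no members were read from a list of 54, of which 46 were measured. None passed the adjusted threshold; 26 were higher and 20 lower, with a median of 0.01. At an unadjusted p under 0.05, 1 was higher and 1 lower, which is 2.17% in each direction beside 3.02% and 1.55% of all genes. The groups did not overlap for 5 higher genes (10.9%, beside 5.24%) and 2 lower genes (4.35%, beside 3.23%). Ahsa2, a relative of the HSP90 activator AHA1, was at 9.12, 9.43 and 9.16 in unmated and 9.52, 9.56 and 10.04 in mated rats, without overlap. Its difference was 0.47 (95% confidence interval 0.12 to 0.82; unadjusted p = 0.014 by limma).

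Pfdn6, a subunit of prefoldin, which hands clients to the cytosolic chaperonin, was at 9.71, 9.74 and 9.60 in unmated and 9.32, 9.37 and 9.47 in mated rats. Its groups did not overlap in the downward direction, and the difference was -0.30 (95% confidence interval -0.47 to -0.12; unadjusted p = 0.00425 by limma). Chordc1, an HSP90 cofactor induced by heat, differed by 0.30 (-0.01 to 0.62), and Serpinh1, the collagen chaperone HSP47, by 0.23 (-0.01 to 0.47). Of the HSP90 cofactors Ptges3, Fkbp4, Fkbp5, Cdc37 and Ppid, which serve steroid receptors and kinases, none differed by more than 0.09 in either direction.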

How the data were processed

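The values are the log2 signals the authors deposited, 1 per probe set and array; per the submitters' processing notes they came from RMA (background correction, quantile normalization, probe summary) in Affymetrix Expression Console, and versions, genome build and scan batches are not given in the sources used here. RMA forces similar distributions, so a shift of most transcripts would not show. Of 29214 probe sets 15310 had 1 symbol, 323 several and 13581 none listed. The fit used limma 3.58.1 in R 4.3.3 (lmFit, eBayes) on 14506 genes, without covariates, with two-sided tests and Benjamini-Hochberg adjustment; the procedure was tested on simulated data. The number of arrays limits precision: the 95% interval of the median member reached 0.20 to either side.

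Members, lists and motifs were chosen with earlier results of these data known. Values on every array are given for the member of smallest p and of highest mean in each class, those with an unadjusted p under 0.05, and the 5 largest differences in each direction above the receptor range; Dnajc21, Dnajb6, Hspe1, Hspa5 and Dnajb13 were chosen after their values were seen, as were Ahsa2, Pfdn6, Chordc1, Serpinh1, the single markers and the 5 HSP90 cofactors. Median differences of the marker lists were -0.01 for smooth muscle (4 of 10 higher), -0.07 for fibroblasts, 0.01 for endothelium, -0.04 for macrophages (3 of 10 higher) and 0.04 for neutrophils.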

Additional observations from a re-analysis of the deposited data

How the results depend on the processing

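Under 15 alternatives to the comparison no gene passed the adjusted threshold in any. The 22 members named by rule kept the sign of their difference in all but 8 of 327 member and alternative pairs. The exceptions were Hspa8 at -0.00 after a second quantile normalization, Bag1 at -0.01 with array weights and some of the values with single arrays left out, which ran from -0.02 to 0.05 for Bag1, from -0.05 to 0.09 for Dnajb11 and from -0.03 to 0.09 for Hsf2. The count of 5 members at an unadjusted p under 0.05 was 9 with array weights, under which 1207 of all genes (8.32%) had such a p, and ran from 0 to 11 when each array was left out in turn, beside 2.98% to 9.67% of all genes. The count of members whose groups do not overlap ran from 5 to 26 in the same way, beside 14.6% to 26.8% of all genes; with fewer arrays in a group non-overlap is easier to reach. The median of the members moved by less than the spread between arrays in each alternative, but it ran from 0.01 to 0.05. Without unmated replicate 1 it was 0.01, the same as for all genes, so the small shift was lost there. With the replicate block 5 members had such a p, beside 672 of all genes (4.63%); 4 of the 5 were shared with the fit without it, and the median was 0.04. Deviations of arrays with the same number correlated at 0.004, -0.083 and 0.074, so the samples were not treated as paired. Over all 83 members the sign turned for 9 under a second quantile normalization or median centring: Dnajb8, Dnajc4, Dnajc6, Dnajc10, Dnajc12, Dnajc16, Hspa5, Hspa8 and Hspb3. Their values stayed between -0.05 and 0.05, apart from Hspa8 at 0.06 after centring. Signals of the 10 members within the receptor range may be mostly background, and their differences can be compressed.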
